A study of Mus musculus with 8 samples.

Results

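The genes described here build or serve the primary cilium, or cause cystic kidney disease when mutated. They were chosen by name: all genes named Ift or Bbs with a number, the Nphp genes, the 3 tectonic genes, Mks1, Tmem67, Tmem216, Tmem231, the motor genes Kif3a and Kif3b, and Pkd1, Pkd2, Pkhd1, Ahi1, Cep290, Invs, Glis2, Glis3, Ofd1, Arl13b, Bicc1 and Rpgrip1l. On the array, 43 of the 17305 genes that could be named belonged to this set, and 39 of the 12000 genes that were tested. The RNA came from kidneys of C57BL/6 mouse embryos at embryonic day 15.5 that were either p53 null or p53 wild type. Each of 8 arrays with 2 colours set null against wild-type RNA directly, in 3 replicates with the dyes swapped within each, so that replicate 1 had 4 arrays and replicates 2 and 3 had 2 each. The comparison asks which transcripts differ in the developing kidney when p53, encoded by Trp53, is lost. The sources used here give neither the number of embryos or litters behind an RNA nor the deleted part of Trp53.

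The primary cilium is a single, non-motile extension of the cell membrane that grows from the mother centriole and that most cells of the kidney carry. Intraflagellar transport (IFT) trains move cargo along it, IFT-B complexes outward on kinesin-2 motors and IFT-A complexes back on dynein-2, while the BBSome carries membrane proteins and the transition zone at the base gates what enters and leaves. Mutations in these parts cause polycystic kidney disease, nephronophthisis and the Joubert, Meckel and Bardet-Biedl syndromes, in many of which tubules widen into cysts.

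Each value below is a log2 ratio with null in the numerator, so that a value below 0 is lower in null than in wild type. They are given for replicates 1, 2 and 3 in that order, and as mean ± SD over the replicates (n = 3). Every gene is read from its brightest tested probe. The file headers place replicate 1 on slide 1 and replicates 2 and 3 on slide 2, and replicate 1 stood apart. Over the 12000 tested genes, a description since genes are no replicates, Pearson's r was 0.94 between replicates 2 and 3, but 0.02 between 1 and 2 and −0.21 between 1 and 3. The log2 differences between wild-type signals of replicates 2 and 3 in the same dye were summarised by their median absolute deviation, scaled as an SD. Over the tested probes it was 0.109 with null in Cy5 and 0.117 with null in Cy3. Between repeat arrays of 1 wild-type RNA in replicate 1 it was 0.116 and 0.111. Null signals of replicates 2 and 3 had 0.160 and 0.167, and repeat arrays of the null RNA had 0.130 and 0.0842. The labels do not say whether replicates 2 and 3 shared 1 wild-type RNA. If they did, p-values from slide 2 leave out the spread between wild-type samples, and replicates 2 and 3 are not independent in the test of all 3 replicates or in any SD below. The check of the targeted gene was lower in null on 8 of 8 arrays with 1 Trp53 probe (−1.08, −0.47 and −0.45) and not with a second probe (0.01, 0.28 and 0.18); a probe outside the deleted part checks nothing. On slide 1 57.8% to 62.8% of the probes of an array were well above background in either channel, and on slide 2 46.9% to 51.4%. Slide 2 was dimmer. Its median spot signals before background correction were 29 to 33 in Cy3 and 79.5 to 90 in Cy5. On slide 1 they were 47 to 54 and 106.5 to 116. The part of signal in the differences between slides was not tested. The number of replicates, 3, limits the precision, since arrays within a replicate are repeats that were averaged. Since whole kidneys were used, fewer cells of a type and less RNA per cell cannot be told apart.

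Most of the cilium and cystic kidney genes had lower mean ratios in null, by small amounts. Of the 39 tested genes, 28 had a mean below 0 and 11 above 0, and the median was −0.13 against 0.0047 over all 12000 genes. This split depends on the scaling: with median centring in place of loess the median of all genes shifted to 0.15, 18 members lay below 0 and 21 above, and 29 lay below the median of all genes. In limma's moderated test of the 3 replicate values 0 of the 39 passed an adjusted p of 0.05, as did 0 of all 12000 genes (0%). At an unadjusted p under 0.05, 6 members were lower and 1 was higher, while 8.92% of all genes were lower and 9.24% higher. In all 3 replicates 15 members (38.5%) were lower, against 19.7% of all genes, and 3 (7.69%) were higher, against 20.4%. The median of the members was −0.02 in replicate 1 and −0.18 in each of replicates 2 and 3. The shift of the list was thus seen on slide 2, while the median on slide 1 lay close to 0.

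**Figure D1:**
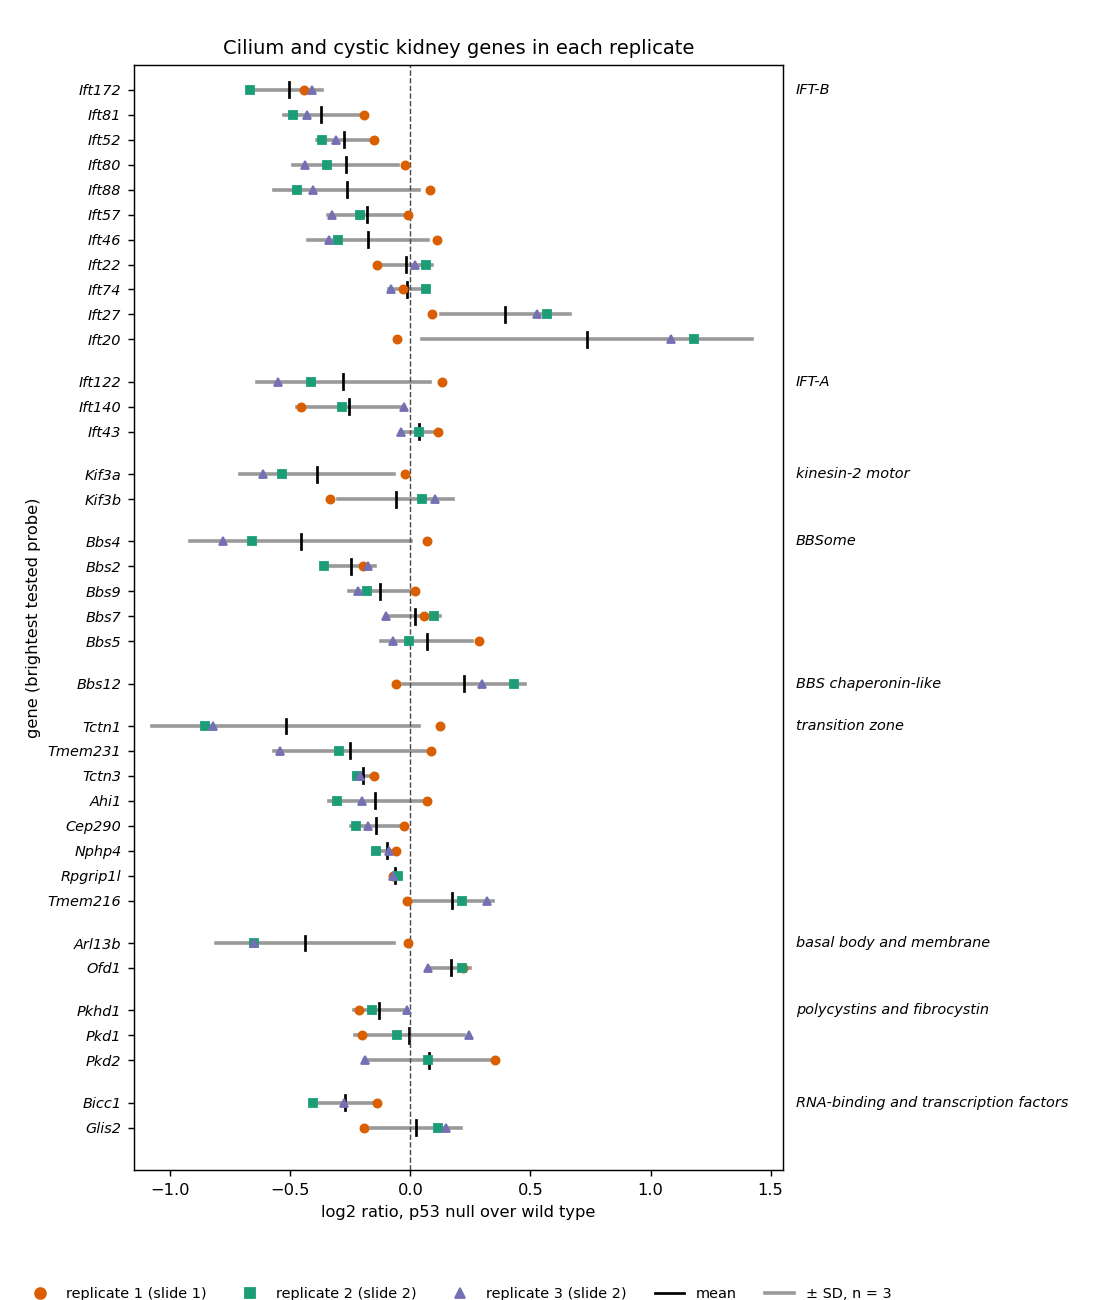
Log2 ratio of null over wild type (horizontal axis) of 37 of the 39 tested genes, grouped by their part in the cilium; points are the 3 replicates, black ticks the means and grey bars ± SD (n = 3). The circles of replicate 1 mostly lie near 0 (median −0.02 over all 39), while the squares and triangles of replicates 2 and 3 lie near each other and mostly below 0 (median −0.18 in each over all 39).

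IFT-B held the members with the smallest p-values. Of its 11 tested genes 9 had means below 0, 5 of them in all 3 replicates, and the median was −0.18. Ift172, a large subunit at the periphery of the complex, had −0.44, −0.67 and −0.41, and all 8 arrays read lower in null, from −0.25 to −0.74. Its mean of −0.51 ± 0.14 is 0.704 of the wild-type level (unadjusted p = 0.00378, adjusted p = 0.279). Its other tested probes were also below 0, at −0.35 ± 0.13 and −0.16 ± 0.10. Ift81, which binds tubulin together with Ift74, had −0.19, −0.49 and −0.43 (mean −0.37 ± 0.16, adjusted p = 0.279). Ift52, a core subunit, had −0.15, −0.37 and −0.31 (mean −0.28 ± 0.11, adjusted p = 0.279). Both genes were lower on 8 of 8 arrays. Ift74, the partner of Ift81, had −0.03, 0.07 and −0.08, on both sides of 0.

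By brightest probe, a further group of IFT-B genes was lower on slide 2 and near 0 in the mean of slide 1. Ift80 had −0.02, −0.35 and −0.44 (mean −0.27 ± 0.22). Ift88, whose mutation shortens cilia and gives polycystic kidneys in mice, had 0.08, −0.47 and −0.41. Ift57 had −0.01, −0.21 and −0.32. Its replicate 1 arrays split by dye, with 0.34 and 0.22 for null in Cy5 and −0.24 and −0.35 for null in Cy3. Other Ift57 probes had means of −0.22 and −0.36 with null in Cy5, and of −0.14 and 0.03 with null in Cy3. Ift46 had 0.11, −0.30 and −0.34, while a second, dimmer Ift46 probe had 0.06, 0.38 and 0.31 (mean 0.25). By brightest probe replicates 2 and 3 lay below replicate 1 in each of the 4 genes, and closer to each other than to it. With the second Ift46 probe they lay above replicate 1.

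A pair of small IFT-B subunits went the other way. Ift20, which also resides at the Golgi and sorts membrane proteins to the cilium, had −0.05, 1.18 and 1.08, with a mean of 0.74 ± 0.69 (adjusted p = 0.298). All 4 arrays of slide 2 read above 1, while the 4 arrays of replicate 1 lay between −0.14 and 0.09. A second Ift20 probe had 0.11, 0.98 and 0.87. Ift27, a small GTPase that helps the BBSome leave the cilium, had 0.09, 0.57 and 0.53 (mean 0.40 ± 0.27, unadjusted p = 0.0323, adjusted p = 0.281). In replicate 1 the arrays of Ift27 split by dye, with −0.15 and −0.31 for null in Cy5 and 0.32 and 0.50 for null in Cy3. Ift22 stayed within 0.14 of 0 in each replicate.

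**Figure D2:**
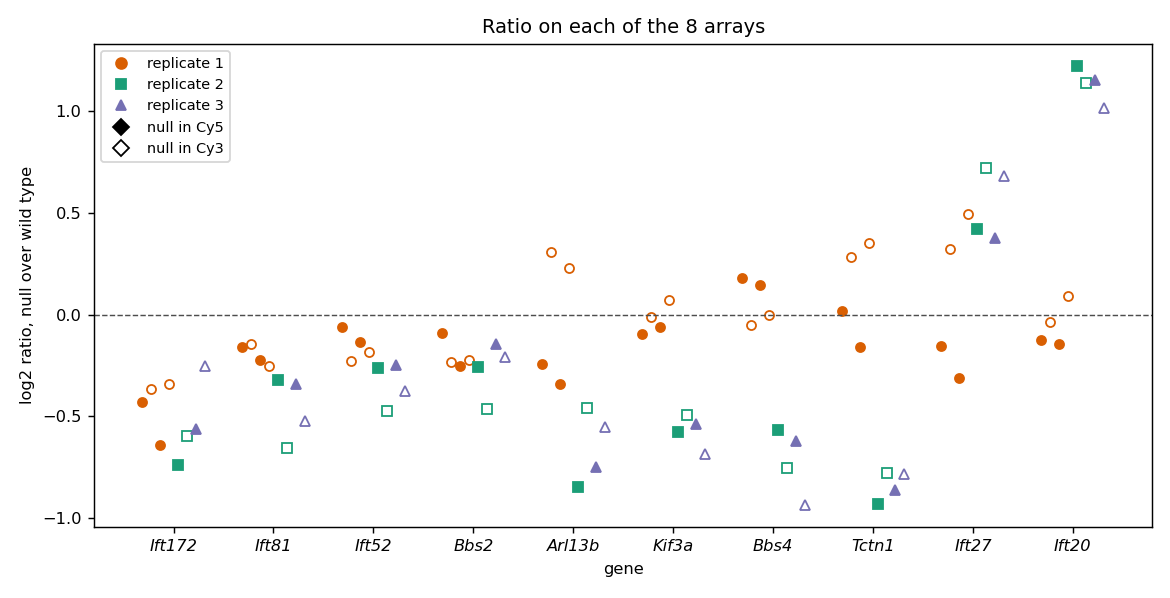
Log2 ratio of null over wild type (vertical axis) of 10 cilium genes on each of the 8 arrays; colour and shape give the replicate, filled points have the null RNA in Cy5 and open points in Cy3. Ift172, Ift81, Ift52 and Bbs2 are below 0 on all 8 arrays, whereas Tctn1, Bbs4 and Ift20 are far from 0 on the 4 arrays of slide 2 alone.

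The retrograde and motor genes were mixed. Among the IFT-A genes, Ift140, mutated in a skeletal and renal ciliopathy, had −0.46, −0.28 and −0.03 and was lower on 8 of 8 arrays (mean −0.26 ± 0.22, adjusted p = 0.320). In Ift140 replicate 1 was the lowest, and replicate 3 lay near 0. A second Ift140 probe had a mean of −0.04 ± 0.03, and the mean over both probes was −0.15. Ift122 had 0.13, −0.41 and −0.55, and Ift43 had 0.11, 0.03 and −0.04. Kif3a, a motor subunit of kinesin-2 whose loss from tubules removes cilia, had −0.02, −0.54 and −0.61 (mean −0.39 ± 0.32, adjusted p = 0.292). A second Kif3a probe gave 0.06, 0.02 and 0.07, so the low value rests on the brighter of the probes. Kif3b, the other motor subunit, had −0.34, 0.05 and 0.10 (mean −0.06 ± 0.24), with replicate 1 below the others. Replicate 1 thus lay above the others in Kif3a by its brighter probe and below them in Kif3b.

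In the BBSome, 3 of 5 tested genes had lower means. Bbs2 had −0.20, −0.36 and −0.18 and was lower on 8 of 8 arrays (mean −0.25 ± 0.10, adjusted p = 0.281). Bbs4, which links the BBSome to pericentriolar satellites, had 0.07, −0.66 and −0.78 with its brighter probe (mean −0.46 ± 0.46, adjusted p = 0.318). Its second probe read −0.29, −0.37 and −0.32, below 0 on all 8 arrays, so the probes gave the same direction on slide 2 and not on slide 1. Bbs9 had 0.02, −0.18 and −0.22. Bbs7 and Bbs5 had means of 0.02 and 0.07, and Bbs12, which is related to chaperonins that assemble the BBSome, had −0.06, 0.43 and 0.30 (mean 0.22 ± 0.25).

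At the transition zone 7 of 9 tested genes had lower means. Tctn1, a tectonic protein of the gate, had 0.12, −0.86 and −0.82 (mean −0.52 ± 0.56, adjusted p = 0.329). Its replicates 2 and 3 lay apart from replicate 1, in which single arrays ran from −0.16 to 0.35. Tctn3 had close replicates, at −0.15, −0.22 and −0.21 (mean −0.20 ± 0.04, unadjusted p = 0.0448, adjusted p = 0.288). With null in Cy5 its mean was −0.02 and with null in Cy3 −0.37, so its size depended on the dye. Tmem231 had 0.09, −0.30 and −0.54, and Cep290, which tethers microtubules to the membrane, had −0.03, −0.23 and −0.18. Ahi1, the gene of jouberin, had 0.07, −0.30 and −0.20 with its brighter probe, while its second probe had −0.18, −0.22 and −0.17 and was lower on 8 of 8 arrays (unadjusted p = 0.0451, adjusted p = 0.288). Rpgrip1l and Nphp4, other parts of the gate, ranged from −0.14 to −0.05 over the replicates. The arrays of Nphp4 split by dye, with a mean of 0.21 for null in Cy5 and −0.41 for null in Cy3, and were lower on 4 of 8. Tmem216, also of the gate, had −0.01, 0.22 and 0.32, above 0 on slide 2.

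Arl13b, a GTPase of the ciliary membrane mutated in Joubert syndrome, had −0.01, −0.65 and −0.65 (mean −0.44 ± 0.37, adjusted p = 0.291). Other Arl13b probes gave 0.18, −0.64 and −0.66, and −0.05, −0.13 and −0.29. Ofd1, an X-linked gene of the basal body, had 0.22, 0.21 and 0.07 (mean 0.17 ± 0.08, adjusted p = 0.330). The samples also differed in sex-linked transcripts: wild-type RNA had Xist, the RNA that coats a silenced X, well above background on 8 of 8 arrays, and null RNA on 2 of 8, both of replicate 2. The Y-linked Eif2s3y and Kdm5d were well above background in null RNA on 6 of 8 arrays, all of replicates 1 and 3, and in wild-type RNA on 0. Ddx3y, also Y-linked, was so on 6 and on 2. By these transcripts, sex and genotype cannot be told apart in replicates 1 and 3, for any gene. The part of sex in the values of Ofd1 and of the other members was not tested.

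The genes of the human polycystic kidney diseases had means between −0.13 and 0.08. Pkd1, which encodes polycystin-1, had −0.20, −0.05 and 0.24 (mean 0.00 ± 0.23, adjusted p = 0.985), and its replicates lay on both sides of 0. Pkd2, which encodes the channel polycystin-2, had 0.35, 0.07 and −0.19 (mean 0.08 ± 0.27, adjusted p = 0.750). Its arrays with null in Cy5 averaged 0.36 and those with null in Cy3 −0.20, and a second Pkd2 probe gave −0.14 ± 0.10. Pkhd1, the gene of fibrocystin and of recessive polycystic kidney disease, had −0.21, −0.16 and −0.01 (mean −0.13 ± 0.10, adjusted p = 0.422). With null in Cy5 the Pkhd1 mean was 0.01, so it was lower in null in only one of the dye orientations. Bicc1, an RNA-binding protein whose mouse mutants have cystic kidneys, had −0.14, −0.40 and −0.28 and was lower on 7 of 8 arrays (mean −0.27 ± 0.13, unadjusted p = 0.0304, adjusted p = 0.280), though median centring gave a Bicc1 mean of 0.02 where the median of all genes was 0.15. Glis2, a zinc finger factor mutated in nephronophthisis, had −0.19, 0.12 and 0.15. A dimmer Glis2 probe spread from −0.85 in replicate 1 to 0.43 in replicate 3.

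The remaining members were too dim to test. Glis3 was not well above background on any array, Invs and Tctn2 were above it on 4 of 8 arrays in each genotype, and Tmem67 on 3 of 8. Bbs1, Bbs10 and Mks1 were not analysed here.

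The X-box, the motif that RFX transcription factors bind in promoters of ciliary genes, was searched as GTNNCC and GGNNAC with 0 to 3 bases between, on both strands, in RefSeq windows (GRCm38.p6) from 250 bases before to 50 after each start site. It was in 12 of the 35 members that have a window (34.3%) and in 4.38% of 27025 genes. The p53 response element, searched by name as a pair of half-sites with 0 to 13 bases between, was in 0 of the 35 members and in 0.074% of all genes. The CCAAT motif was in 54.3% of the members and 41.1% of genes, and GGGCGG, which can overlap other motifs, in 57.1% and 38.2%. Of the 11 tested members with an X-box, the 7 below passed the threshold on slide 2 alone, as given further on. Tmem216 passed it higher in null and the others lower, while 27.1% of all genes passed it lower and 32.9% higher. With replicate 1 left out, 60.1% of all genes passed in either direction. The 7 are shown because they are the cilium genes with both the motif and that call. A link between motif and call was not tested. The X-box is in capitals, 5′ to 3′ on the strand of the gene. It has 8 bases on each side, except that the Tctn1 match ends at the edge of its window.
Tctn1, chr5:122264411-122264432, minus strand: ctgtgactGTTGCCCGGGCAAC
Bbs4, chr9:59353464-59353493, minus strand: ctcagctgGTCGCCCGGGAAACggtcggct
Tmem231, chr8:111933781-111933810, minus strand: cgccgtcgGTTGCCGTGGAGACtcggcgct
Ahi1, chr10:20952560-20952589, plus strand: tagtctgaGTTACCTAGGCAACagcggcag
Ift57, chr16:49699199-49699254, plus strand: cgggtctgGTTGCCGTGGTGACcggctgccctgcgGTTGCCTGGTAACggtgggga
Tctn3, chr19:40612351-40612379, minus strand: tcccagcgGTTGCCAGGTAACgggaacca
Tmem216, chr19:10555723-10555752, minus strand: tgtacgcaGTTTCCATGGGGACtgaacatg
The 2 copies of Ift57 begin at −87 and −60 bases from its start site and that of Tctn3 at −140, while the matches of Tctn1, Bbs4, Tmem231, Ahi1 and Tmem216 begin between 11 and 36 bases after the start site. Of the 11 tested members with an X-box, 9 had means below 0 and 4 were lower in all 3 replicates (median −0.15, with −0.01 in replicate 1 and −0.22 on slide 2). Of the 21 tested members with a window and no match, 14 were below 0 and 8 were lower in all 3 replicates (median −0.07, with −0.03 in replicate 1 and −0.06 on slide 2). A match is a description of these letters and was not tested as a binding site.

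The median absolute ratio of the members was 0.0881 on slide 1 and 0.253 on slide 2, against 0.141 and 0.218 for all genes. On slide 2 alone 20 members passed the threshold lower in null and 5 higher (limma, adjusted over all probes), against 27.1% and 32.9% of all genes. The lowest values on slide 2 were those of Tctn1 (−0.84, adjusted p = 2.53e-11), Bbs4 (−0.72, adjusted p = 7.54e-10), Arl13b (−0.65, adjusted p = 4e-09), Kif3a (−0.57, adjusted p = 4.68e-08) and Ift172 (−0.54, adjusted p = 3.46e-07). Among the 5 higher ones were Ift20 (1.13, adjusted p = 4.6e-14), Ift27 (0.55), Bbs12 (0.36) and Tmem216 (0.27). These p-values rest on the spread between replicates 2 and 3 of 1 slide, and the values on the brightest probes. Further probes on slide 2 gave −0.34 for Bbs4, −0.65 and −0.21 for Arl13b and 0.04 for Kif3a (adjusted p = 0.615). For Ift172 they gave −0.33 and −0.14, and for Ift20 0.92. By representative probe the sign on the slides was the same for 19 members (48.7%) and for 47.2% of all genes. The correlation of replicates 2 and 3 over the 39 members was 0.94, and those of replicate 1 with replicates 2 and 3 were 0.12 and −0.13, which describes genes measured on shared arrays.

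Slide 1 holds replicate 1 alone, so in a test of slide 1 minus slide 2 all the spread came from replicates 2 and 3, and replicate 1 was assumed to vary like them. On that assumption the test called 12 members above 0 (19.3% of all genes) and 5 below 0 (28.6%). Ift20 had the largest difference, at −1.19 (limma, adjusted p = 5.69e-09), followed by Tctn1 at 0.96 (adjusted p = 1.92e-07), Bbs4 at 0.79 (adjusted p = 5.14e-06), Arl13b at 0.64 (adjusted p = 7.43e-05), Ift122 at 0.61 (adjusted p = 1.5e-04) and Kif3a at 0.55 (adjusted p = 4.51e-04). Pkd2, Bbs5 and Kif3b also passed (adjusted p = 0.00955, 0.0288 and 0.00636). Of the 17 members called, 9 had further tested probes, and 4 of these 10 probes were called in the same direction. The second probes of Bbs4 (0.05, adjusted p = 0.788), Kif3a (0.01, adjusted p = 0.940), Ahi1 (0.02, adjusted p = 0.931) and Pkd2 (0.16, adjusted p = 0.315) did not pass, nor did 1 of Arl13b and that of Ift46. Ift172, Bbs2, Tctn3, Ift52 and Bicc1 did not pass this test, with differences from 0.06 to 0.20. Slide, scan and replicate cannot be told apart for replicate 1.

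**Figure D3:**
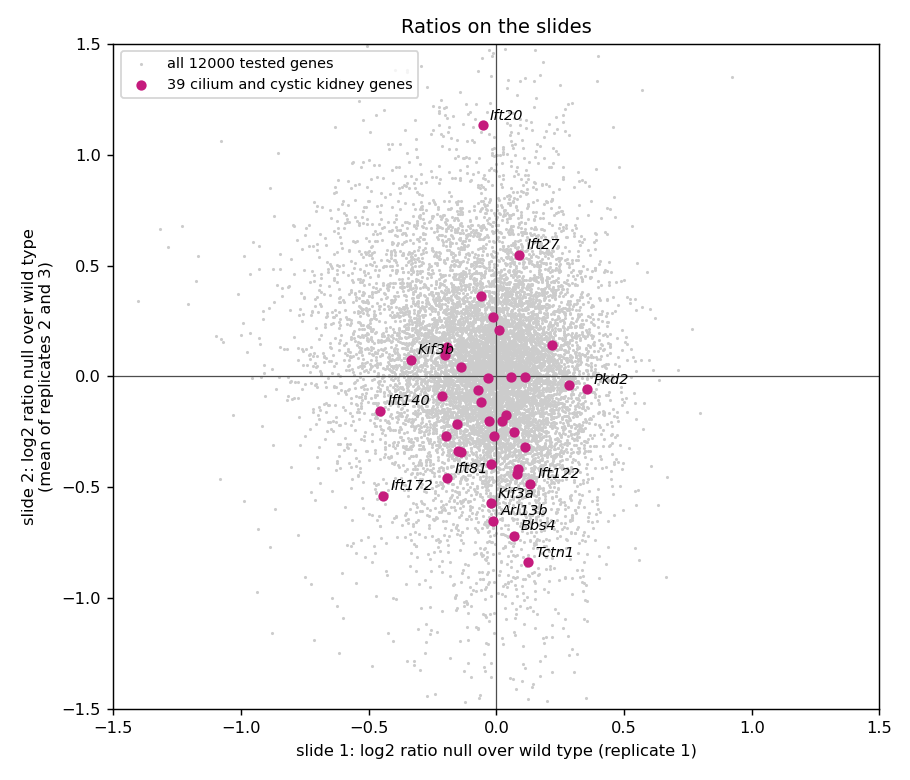
Log2 ratio of null over wild type on slide 1 (replicate 1, horizontal axis) against slide 2 (mean of replicates 2 and 3, vertical axis) for all 12000 tested genes (grey; 94 lie outside the axes) and the 39 cilium and cystic kidney genes (coloured). Members spread along the vertical axis, from −0.84 for Tctn1 to 1.13 for Ift20, while most of them lie near 0 on the horizontal axis; Ift172 is low on both slides.

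In the lists of related genes below, 86.4%, 59.3% and 62.5% in turn had means below 0, against 49.2% of all genes. Among 22 tested IFT, dynein-2 and BBS genes of other names, 19 had means below 0 and 3 above, and the median was −0.15, with 0.06 in replicate 1, −0.27 in replicate 2 and −0.24 in replicate 3. In this list 5 genes (22.7%) were lower in all 3 replicates, against 19.7% of all genes, and 7 were below 0 in replicate 1. In the nephronophthisis and cystic kidney lists below, this share was 40.7% and 31.2%. Of the 22 genes 0 passed the threshold (0% of all genes), and 2 were lower and 2 higher at an unadjusted p under 0.05. For this list and those that follow, the shares of all genes at that p were 8.92% lower and 9.24% higher. Kif3c, another kinesin-2 motor, had −0.30, −0.41 and −0.38. Ttc30a1, an IFT-B subunit, and Arl6, the GTPase that recruits the BBSome, were above 0 in all 3 replicates, with means of 0.45 and 0.41. Of 27 other genes of nephronophthisis and of the Joubert and Meckel syndromes 16 were below 0 (median −0.05, 0 passed, 2 lower and 2 higher at an unadjusted p under 0.05), with Pde6d at −0.37, Cep41 at 0.42 and Tmem17 at 0.28. Of 16 other cystic kidney genes 10 were below 0 (median −0.12, 0 passed, 3 lower and 0 higher at an unadjusted p under 0.05). Among them Dzip1l had a mean of −0.29 and Prkcsh, the glucosidase subunit of polycystic liver disease, of −0.22.

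Among 6 tested regulators of ciliary genes, 3 had means below 0 (median 0.01) and 0 passed the threshold. At an unadjusted p under 0.05 there were 0, against 8.92% of all genes lower and 9.24% higher. Rfx3, which binds X-boxes, had 0.03, −0.59 and −0.60, and was well above background in null RNA on 4 of 8 arrays and in wild-type RNA on 7. Foxj1, the regulator of motile cilia, was not detected in wild-type RNA (well above background on under 50% of the arrays of a replicate). Nor were 8 other of the 14 multiciliated cell markers on the array, among them Dnah5, Rsph1 and Hydin. The 6 tested markers of that list had a median of 0.03 (0.00, 0.08 and −0.03 in replicates 1, 2 and 3).

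Marker lists of other cell types differed in how their ratios lay on the slides. The median absolute ratio was larger on slide 1 for podocyte (0.362 against 0.162), ureteric bud and collecting duct (0.314 against 0.256) and early nephron markers (0.322 against 0.143). It was larger on slide 2 for every other marker list, as for all genes (0.141 against 0.218). Among these lists were nephron progenitor (0.246 against 0.376), proximal tubule (0.181 against 0.267) and endothelial markers (0.0452 against 0.354). The others included stromal (0.170 against 0.440), loop of Henle and distal tubule (0.0683 against 0.550) and macrophage and leukocyte markers (0.322 against 0.611). Erythroid (0.396 against 1.43) and liver markers (0.258 against 1.33) differed most in size. Of the kidney's own lineages, 8 of 8 nephron progenitor, 8 of 8 early nephron and 7 of 7 stromal markers were detected in wild type. Fewer were detected for ureteric bud and collecting duct (8 of 10), podocyte (5 of 7), loop of Henle and distal tubule (5 of 6) and proximal tubule (3 of 7). Means were split in sign for nephron progenitor (4 below 0, 4 above) and ureteric bud and collecting duct markers (5 and 4). So were those of podocyte, proximal tubule and endothelial markers (2 and 3 each). The 7 stromal markers had means from −0.49 to −0.09, all below 0, with medians of −0.09, −0.32 and −0.53 in replicates 1, 2 and 3. The 8 early nephron markers, all below 0, had medians of −0.22, −0.23 and −0.12. The 5 tested markers of the loop of Henle and distal tubule were all above 0, with −0.05, 0.64 and 0.55. The 5 macrophage and leukocyte markers were all above 0, from 0.43 to 0.75, with medians of 0.24, 0.64 and 0.58. The 4 tested erythroid markers had −0.40, 1.27 and 1.60, and the 2 tested liver markers, Afp and Fgb, had −0.16, 1.37 and 1.28, while Alb, Apoa1 and Ttr were not detected in wild type. The part of these cell types in the values of the cilium genes was not tested.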

How the data were processed

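Per the labels' protocols, cDNA was labelled directly with Cy3 or Cy5. The deposited scanner output gives the linear intensity of each spot and its surround. Its headers name Agilent Feature Extraction 10.5.1.1, and the submitters' processing notes version 6.1. The deposited value table holds log10 ratios. It equals the program's log10 ratio turned to null over wild type (correlation 1, largest difference 4.94e-06), with column medians of 0.0083, −0.0024, 0.0042 and 0.0015 (replicate 1), 0.00083 and 0.0064 (replicate 2) and 0.0064 and 0.011 (replicate 3). Of its 43379 spots 7732 to 14364 per array are empty, for a reason the sources used here do not state.

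Median spot and background signals gave the ratios (limma 3.58.1, R 4.3.3, normexp with offset 50, loess). The offset compresses ratios of dim probes. The 1639 control spots were left out, outlier flags set missing, and 0 spots were saturated. Dye orientations were averaged within a replicate. Of 41174 probes, 25097 were named through RefSeq accessions (GRCm38.p6; the array build is mm9). A probe was tested if, in each replicate, 1 genotype was well above background on a share of 0.5 or more of the arrays and a value was left; 20865 were, 4257 of them unnamed. The test was limma's two-sided fit of the 3 values per probe against 0 (4.22 degrees of freedom), adjusted by Benjamini-Hochberg over the 20865 probes. Slide 2 was also fitted alone, and slide as a term. The code was tested on simulated data.

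The genes, lists, tests and alternatives were chosen with earlier results of these data known. Members were named with values in every replicate if they were Pkd1, Pkd2, Pkhd1, Bicc1, Glis2, Kif3a, Kif3b or among the 14 others of smallest p; other members are given where they complete a group. From each list of related genes up to 3 of smallest p were named. Foxj1, Xist, the Y-linked genes and single cell type markers were chosen after their values were seen. Of 13 members with more than 1 tested probe, 5 had probes of differing sign, among them Ift46, Kif3a, Pkd2 and Glis2. Some genes are not reported here by name; they stayed in all tests and counts. P-values measure the spread between these replicates, which the labels call biological.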

Additional observations from a re-analysis of the deposited data

Results flagged for a closer look

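Of the 39 members, 1 had an array far from the others: Bbs2 read −0.47 on the array of replicate 2 with null in Cy3, while the other 7 arrays lay between −0.26 and −0.09. The gap was 0.555 of the range of the 8 arrays. Such a gap would occur by chance in about 1 in 20 sets of independent arrays, and these arrays are repeats of 3 replicates. With replicate 2 left out the direction of Bbs2 was the same.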

How the results depend on the processing

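With limma 0 probes and 0 of the cilium and cystic kidney genes passed the threshold, against 3583 probes at an unadjusted p under 0.05. Most alternatives also gave 0. An exception was slide as a fixed block (8521 probes, 20 of 39 members, against 43.2% of all genes), where the residual spread comes from slide 2 alone. Another was all 8 arrays with replicate as a random effect (965 probes, and Ift172 as 1 of 38 members, against 5.18% of all genes). Leaving out a replicate gave 0 to 11699 probes and 0 to 25 of 39 members. The high end was without replicate 1, where 60.1% of all genes passed. Without replicate 2 or 3 it was 0, with 290 and 832 probes at an unadjusted p under 0.05. With 1 value per slide 0 probes passed, and 522 had an unadjusted p under 0.05. The median of the members ran from −0.20 to −0.08 except with median centring, where it was 0.0006, or −0.15 relative to all genes. The count of members that differ between slides, 17, ran from 13 to 20. Of 357 values of 21 named members under 17 alternatives, 308 kept direction and call, 31 passed the threshold with the same sign and 18 turned sign, none of them past the threshold. These were Pkd1 (−0.0046) with median centring (0.218), the deposited table (0.0173), null in Cy3 only (0.0836) and without replicate 1 or 2 (0.0944, 0.0199); Pkd2 (0.08) with null in Cy3 only (−0.20), without replicate 1 (−0.0576) and as a mean over probes (−0.0302); Glis2 (0.02) with slide as a block or 1 value per slide (−0.0304 each), null in Cy3 only (−0.0357), as a mean over probes (−0.0653) and without replicate 2 or 3 (−0.0222, −0.0386); Kif3b (−0.06) without replicate 1 (0.0755); Pkhd1 with null in Cy5 only (0.0064); and Bicc1 (0.0182) and Ift57 (0.0096) with median centring. With 1 replicate left out Pkd1 ran from −0.1281 to 0.0944, Pkd2 from −0.0576 to 0.2129, Glis2 from −0.0386 to 0.1324 and Kif3b from −0.144 to 0.0755. The cause was not tested. Each array holds both genotypes and each value is a ratio within an array, so the tests used this pairing and no further pairing was applied. Signal over background limited Glis3, Invs, Tctn2 and Tmem67, which could not be tested.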

Other observations

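Hedgehog signalling runs through the primary cilium in vertebrates, and its genes were split in the null kidneys. Of 20 tested hedgehog pathway genes 11 had means below 0 and 9 above (median −0.12, with −0.04, −0.04 and −0.09 in replicates 1, 2 and 3). With limma 0 passed the threshold, and 3 were lower and 1 higher at an unadjusted p under 0.05. Of all genes 8.92% were lower and 9.24% higher at that p. The coreceptor gene Boc had a mean of −0.30 and the acyltransferase gene Hhat −0.34, while the ligand gene Dhh, which is also a gonad marker, had 0.80. Of 33 centriole and basal body genes, 17 were below 0 and 16 above (median −0.01). Here 0 passed, and 3 were lower and 4 higher at an unadjusted p under 0.05, beside the same shares of all genes. Pcm1, the scaffold of pericentriolar satellites, had a mean of −0.53, Tuba1a, an alpha-tubulin, 0.64 and Cep97, which caps centrioles, 0.33.

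Chosen after their values were seen, Wdr19, an IFT-A subunit, had 0.15, −1.11 and −1.16 in replicates 1, 2 and 3, Hspb11, also known as IFT25 and the partner of Ift27, had 0.04, −0.86 and −0.99, and Dync2h1, the heavy chain of the retrograde motor, had 0.33, −0.89 and −0.85. On slide 2 these lay below every member tested, and on slide 1 all were above 0. Ift27 and its partner Hspb11 thus had opposite signs on slide 2, at 0.55 and −0.93.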
